A study of Mus musculus with 2 samples.

Results

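The Schlafen genes were followed through the immune cells of mouse gliomas in 2 single-cell RNA libraries, 1 from wild-type (WT) mice and 1 from CD169-DTR mice. The 7 family members Slfn1, Slfn2, Slfn3, Slfn4, Slfn5, Slfn8 and Slfn9 were taken by their symbol from the 31053 genes counted in each library. Their unique molecular identifiers (UMIs, each of which stands for 1 captured RNA molecule) were summed over 17711 cells, namely every barcode with at least 1000 UMIs of which at most 17% were mitochondrial. GL261, a mouse glioma line, had been injected into the brain of C57BL/6 mice at 100000 cells per mouse. CD169 is the product of Siglec1. CD169-DTR mice were heterozygous, with the diphtheria toxin receptor where 1 of their Siglec1 copies would be, so the toxin can reach any cell that uses this gene, inside or outside the brain. Mice of both groups were given diphtheria toxin on day -1 and day 4 and carried the same tumour, and living CD45.2+ cells were sorted on day 10. The methods give male mice of 8 to 12 weeks, with 3 pooled per group. Each group is therefore 1 library, no test between groups can be made, and genotype cannot be told apart from library. All intervals given here are exact 95% intervals of counting error alone.

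Schlafen proteins share a conserved core at their N-terminal end. In the mouse they fall into short forms that hold little beyond this core (Slfn1 and Slfn2), intermediate forms (Slfn3 and Slfn4) and long forms with a helicase-like C-terminal part (Slfn5, Slfn8 and Slfn9). Many of them are transcribed in response to interferon. Slfn1 was described as a brake on the growth of thymocytes. Slfn2 is known for keeping T cells and monocytes quiescent and alive. Slfn4 is known from myeloid cells that meet interferon or microbial ligands, and Slfn5 as an interferon-induced regulator of transcription in the nucleus.

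All 7 members lay together on chromosome 11 between positions 82951349 and 83215154 of GRCm38 (mm10), within 264 kb. From low to high coordinate the order was Slfn5 on the plus strand (82951349 to 82964840), Slfn9 and Slfn8 on the minus strand (82978390 to 82991830 and 83002158 to 83020810), and Slfn2, Slfn1, Slfn4 and Slfn3 on the plus strand (83065112 to 83070678, 83116849 to 83122670, 83175186 to 83190216 and 83191330 to 83215154). Coding sequences were 1011 bases for Slfn1 and 1134 for Slfn2, 1920 for Slfn3 and 1806 for Slfn4, and 2652 for Slfn5 against 2730 for both Slfn8 and Slfn9. Slfn8 and Slfn9 were identical at 92.7% of aligned coding bases and Slfn3 and Slfn4 at 92.1%, whereas Slfn1 and Slfn2 matched at 70.3%. The libraries read transcripts near their 3′ end. In the last 500 bases of its transcripts, 15.7% of the 50-base windows of Slfn3 also occurred in Slfn4, 13.8% of those of Slfn8 in Slfn9 and 8.28% of those of Slfn9 in Slfn8, so the levels of Slfn3, Slfn8 and Slfn9 are uncertain to that extent. No such window was shared for Slfn1, Slfn2, Slfn4 or Slfn5.

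The promoter stretches that hold an interferon-stimulated response element (ISRE), a motif found near many interferon-induced genes, are shown because the levels below follow interferon response genes. The motif was searched as GAAANNGAAA on both strands in 250 bases before to 50 bases after the annotated start (RefSeq, GRCm38.p6). It occurred in the promoters of 3 of 7 members, namely Slfn5, Slfn8 and Slfn9. Of all 27025 genes 3.99% had it, and of all 32851 promoters 3.44%. Each window holds 60 bases in the direction of its gene, with the match in capitals.
Slfn5, chr11:82951922-82951981, plus strand: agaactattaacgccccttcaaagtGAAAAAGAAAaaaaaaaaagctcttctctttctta
Slfn8, chr11:83020824-83020883, minus strand: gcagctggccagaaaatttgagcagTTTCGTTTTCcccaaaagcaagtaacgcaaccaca
Slfn9, chr11:82991841-82991900, minus strand: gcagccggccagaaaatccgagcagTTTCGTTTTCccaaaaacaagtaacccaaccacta
The match lay 155 to 146 bases before the RefSeq start of Slfn5, which is inside the gene span given above and downstream of its first base, 48 to 39 before that of Slfn8 and 45 to 36 before that of Slfn9. In Slfn8 and Slfn9 it read on the strand opposite to the gene, and their windows were the same at 54 of 60 positions. The gamma-activated site (TTCNNNGAA) occurred in no member's promoter, in 9.55% of all genes and in 8.30% of all promoters. A match is a description of letters, and the absence of one says nothing about a factor.

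The WT library held 10107 cells with a median of 7776 UMIs and the CD169-DTR library 7604 cells with a median of 8099. The libraries shared 21 barcodes. Clusters were built without the Schlafen genes and named after marker genes, so that microglia, macrophages and the other names stand for microglia-like cells, macrophage-like cells and so on. Macrophages were 2267 WT cells (22.4% of the library, median 7221 UMIs) and 736 CD169-DTR cells (9.68%, median 11792). Levels are given as UMIs of a gene per 1000000 UMIs of the class (CPM). Siglec1 reached 37.8 CPM in macrophages of the WT library and 11.8 in those of the other, with a log2 ratio of 1.68 (1.39 to 1.98). In microglia Siglec1 stood at 18.9 CPM in WT and 5.61 in CD169-DTR, with a log2 ratio of 1.75 (1.56 to 1.95). Endothelial and choroid plexus cells were present in the CD45.2+ sort. Free RNA made up an estimated 2.48% of a WT cell's UMIs and 1.89% of a CD169-DTR cell's, and it gives each class 5.18 and 1.88 CPM of Slfn4, 2.73 and 0.691 of Slfn1 and 16.8 and 6.98 of Slfn2.

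Over all cells kept, Slfn2 was the most abundant member with 49644 UMIs from WT and 23026 from CD169-DTR cells. Slfn5 gave 33881 and 13565 UMIs, Slfn4 15421 and 2698, Slfn1 11679 and 2788, Slfn8 10421 and 6015, and Slfn9 3210 and 1699. Slfn3 was the rarest with 445 and 152. Other genes of the family were close to 0, with 4 and 3 UMIs for Slfn14, 2 and 2 for Slfnl1 and 8 and 2 for Slfn5os, which lies antisense to Slfn5. A 3′ count does not depend on transcript length, so these totals compare the genes directly as far as capture is alike.

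A class was called marked by a gene when both libraries had their highest CPM there, at least 2 times the next class and with intervals apart. Only Slfn4 met this rule (1 of 7 members; 18.4% of the 13703 genes with enough UMIs marked some class), and its class was the granulocytes. The other members were spread over several classes. Plasmacytoid dendritic cells, with 101 WT and 11 CD169-DTR cells, were too few to be compared.

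**Figure D1:**
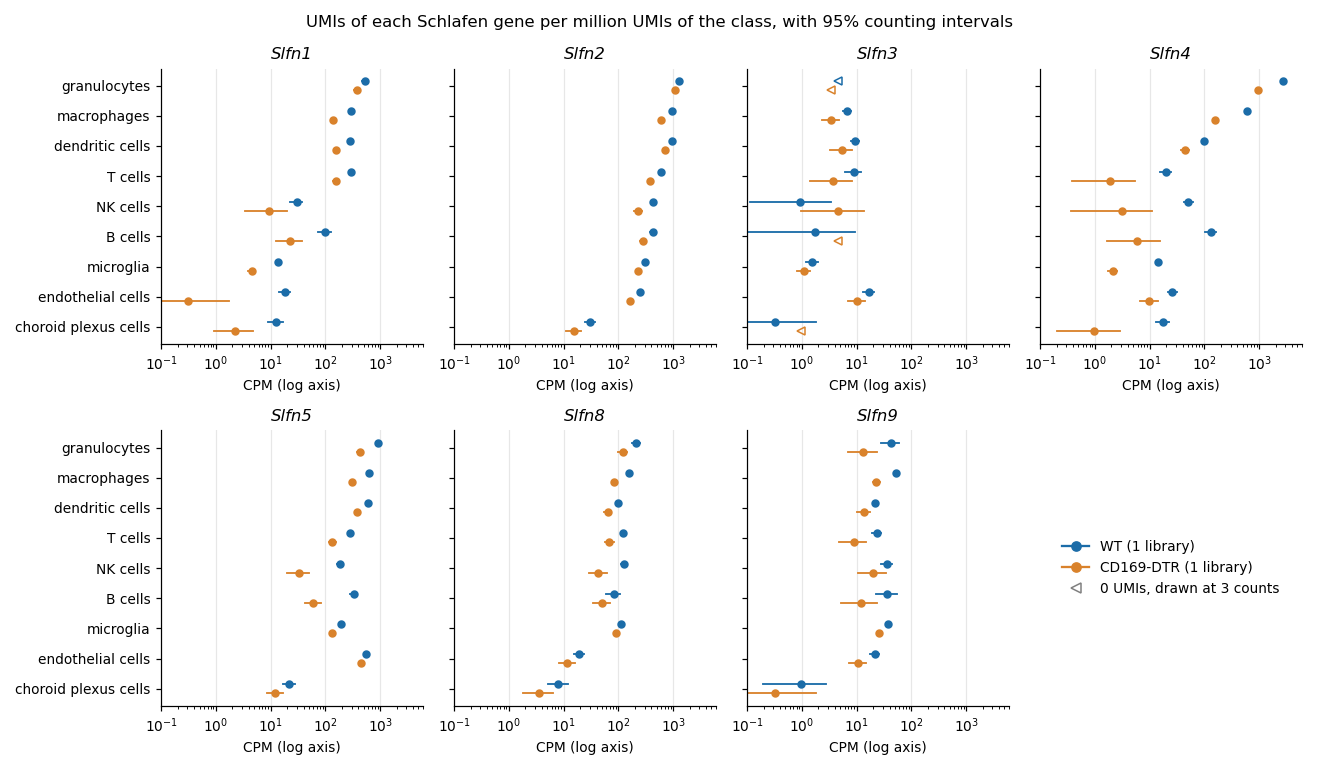
Level of each Schlafen gene (CPM, log axis) in 9 cell classes, WT in blue and CD169-DTR in orange, 1 library each, with 95% counting intervals as bars and open triangles at 3 counts where no UMI was found. Slfn4 is the gene with 1 class far above the others (granulocytes, 2762 and 960), Slfn2 is above 100 in 8 of the 9 classes, and WT lies above CD169-DTR in nearly every pair.

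Among the intermediate forms, Slfn4 reached 2762 CPM (2637 to 2891) in granulocytes for WT and 960 (897 to 1026) for CD169-DTR. Macrophages followed at 605 (594 to 616) and 155 (147 to 163), so granulocytes were 4.57-fold and 6.19-fold above the next class. Granulocytes were shallow cells, with medians of 2924 and 3629 UMIs, and when all cells were thinned to 4500 UMIs only 29 WT granulocytes were left, too few for the rule. Dendritic cells held 96.6 and 44.0 CPM of Slfn4. Microglia held 14.0 and 2.12, where free RNA would give 5.18 and 1.88. The 131 CPM in WT B cells came from 77 UMIs, against 5.97 CPM and 4 UMIs in CD169-DTR B cells.

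Slfn3, the near-copy of Slfn4, had another order. Its highest level was in endothelial cells, with 16.9 CPM from 78 UMIs in WT and 10.2 CPM from 33 UMIs in CD169-DTR. Dendritic cells followed at 9.39 and 5.37, and in the CD169-DTR library their interval met that of the endothelial cells. T cells held 8.85 and 3.76 CPM, macrophages 6.71 and 3.38 and microglia 1.53 and 1.07. No Slfn3 UMI was found in granulocytes of either library, where Slfn4 was at its highest. The exact upper limit of these counts of 0 was 5.50 CPM in WT and 4.10 in CD169-DTR.

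Of the short forms, Slfn1 was highest in granulocytes, at 524 CPM (470 to 581) for WT and 370 (331 to 412) for CD169-DTR. T cells (293 and 154), macrophages (291 and 140) and dendritic cells (278 and 154) came next and did not differ beyond their intervals within a library. The gene was at 97.1 and 22.4 in B cells, 29.6 and 9.20 in NK cells and 13.4 and 4.48 in microglia. Among cells thinned to 4500 UMIs, 60.6% of WT macrophages, 60.5% of WT T cells and 55.9% of WT dendritic cells held a Slfn1 UMI, against 8.58% of WT NK cells and 3.92% of WT microglia. T and NK cells thus stood apart in this gene, while they were close in Slfn8 (123 and 124 CPM in WT).

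Slfn2 was found in every class. In granulocytes it reached 1282 CPM (1197 to 1370) for WT and 1082 (1015 to 1152) for CD169-DTR. WT macrophages (945) and dendritic cells (940) did not differ beyond their intervals, while in CD169-DTR dendritic cells (695) lay above macrophages (601). T cells held 593 and 384, NK cells 423 and 230, microglia 300 and 229 and endothelial cells 249 and 162. The lowest class was the choroid plexus, an epithelium, at 30.0 and 15.2, where free RNA would give 16.8 and 6.98.

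Of the long forms, Slfn5 was shared by myeloid and endothelial cells. Granulocytes held 904 CPM (834 to 979) in WT, macrophages 626 (615 to 638), dendritic cells 605 (592 to 618) and endothelial cells 541 (520 to 563). In CD169-DTR the order changed, with endothelial cells at 454 (431 to 478), granulocytes at 420 (379 to 464), dendritic cells at 378 (359 to 398) and macrophages at 303 (292 to 314), where the interval of granulocytes met those of endothelial and of dendritic cells. Microglia held 192 and 132 CPM. Of endothelial cells thinned to 4500 UMIs, 82.3% in WT and 75.3% in CD169-DTR held a Slfn5 UMI.

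Slfn8 was found in all leukocyte classes, most of all in granulocytes. Its levels were 207 and 121 CPM in granulocytes, 158 and 81.8 in macrophages, 124 and 43.0 in NK cells, 123 and 68.3 in T cells, 113 and 88.4 in microglia, 98.3 and 63.1 in dendritic cells and 81.8 and 49.2 in B cells. Endothelial cells, which were high in Slfn5, held only 19.2 and 11.7 of Slfn8. Slfn9 was at 51.5 and 23.0 CPM in macrophages, 41.8 and 13.3 in granulocytes, 36.8 and 25.2 in microglia, 35.8 and 19.9 in NK cells, 23.2 and 8.78 in T cells and 22.0 and 13.4 in dendritic cells. Macrophages were thus its highest of these classes in WT and microglia in CD169-DTR. In WT the granulocyte interval of Slfn9 (27.8 to 60.4) spanned those of macrophages and microglia. In CD169-DTR the intervals of microglia (23.8 to 26.6) and macrophages (20.1 to 26.2) met, and that of NK cells (10.6 to 34.1) spanned both.

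Likeness of pattern was measured as Pearson's r of log2(CPM + 1) over 18 values (9 classes in 2 libraries, which share cells between genes). The genes most like Slfn5 were Ifit3, Irgm1 and Irf7 (r = 0.97 each), all interferon response genes. Slfn1 was closest to Slc36a3os (0.91), Ifit1bl1 (0.90) and Ly6c2 (0.89), and Slfn4 to Rhov (0.96), Gm5150 and Msrb1 (0.93 each). Slfn2 was closest to Crlf2 (0.96), Atxn7l1 and Sp140 (0.95 each), Slfn3 to Eif6 (0.89), Rab10 and Trib3 (0.88 each), Slfn8 to Trim30d (0.95), Sema4d and Actr2 (0.94 each) and Slfn9 to Ankfy1 and Vcpip1 (0.95 each) and Zufsp (0.94). Between members the closest pairs were Slfn2 with Slfn8 (0.90) and Slfn8 with Slfn9 (0.85).

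The comparison of WT with CD169-DTR sets a whole class, CD169-bearing cells included, against the same class where such cells were targeted by the toxin. On full counts 23.1% of WT macrophages held a Siglec1 UMI, and 12.5% of CD169-DTR macrophages, which were deeper, did. Among macrophages thinned to 4500 UMIs, 14.2% in WT and 4.73% in CD169-DTR held one. The part that loss of such cells has in the ratios was not tested. In macrophages all 7 members were higher in the WT library, as were 5167 of 11754 genes. Slfn4 had the largest difference, a log2 ratio of 1.97 (1.89 to 2.04). Slfn9 followed at 1.17 (0.95 to 1.38), Slfn1 at 1.06 (0.97 to 1.14) and Slfn5 at 1.05 (0.99 to 1.11), then Slfn3 at 0.99 (0.42 to 1.59), Slfn8 at 0.95 (0.84 to 1.07) and Slfn2 at 0.65 (0.61 to 0.70). Thus 4 of 7 members were at least 2-fold higher in WT, where 3.55% of 11754 genes were, and 0 of 7 at least 2-fold lower, where 1.83% were. The median log2 ratio was 1.05 over the family and -0.05 over all genes. Slfn1, Slfn5, Slfn3 and Slfn8 lie close to the 2-fold line. With cells thinned to 4500 UMIs the count was 2 of 7, with Slfn4 at 1.50 and Slfn9 at 1.08.

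The genes known to respond to interferon were higher in WT macrophages as a list, with 59 of 60 higher, 35 at least 2-fold higher and a median of 1.08. Of the list selective for type I interferon, 14 of 18 were at least 2-fold higher (median 1.32). Of the list selective for interferon-gamma, 17 of 19 were higher and 10 at least 2-fold higher (median 1.04). As reference genes, Isg15 had a log2 ratio of 1.62, Ifit3 1.63 and Cxcl10 2.19. The receptors were closer to 0: Ifnar1 was at 0.34, Ifnar2 at -0.06, Ifngr1 at -0.40 and Ifngr2 at 0.23. Of the kinases next to them, Jak1 was at -0.08, Tyk2 at 0.30 and Jak2 at 0.85. Of the transcription factors, log2 ratios were 1.03 for Stat2, 0.36 for Irf9, 1.27 for Irf7, 0.87 for Irf1 and 0.11 for Irf3, and the feedback inhibitors Socs1 and Usp18 at 1.28 and 1.37. In all, 12 of the 15 listed receptor and signalling genes were higher in WT and 4 at least 2-fold higher.

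In microglia, the most numerous class, all 7 members were again higher in WT, as were 5237 of 13760 genes. Slfn4 (log2 ratio 2.72) and Slfn1 (1.58) were past 2-fold (2 of 7; 1.45% of all genes), both at levels under 15 CPM. The more abundant members were nearer to 0, with Slfn5 at 0.54, Slfn2 at 0.39, Slfn8 at 0.36 and Slfn9 at 0.55, and the interval of Slfn3 spanned 0 (0.51, -0.03 to 1.05). None of the 7 was 2-fold lower, as 1.46% of all genes were. Free RNA held 209 CPM of Slfn4 in WT and 99.0 in CD169-DTR, and with free RNA subtracted the microglial log2 ratio was 5.16, on few remaining UMIs.

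In dendritic cells, 1 of 7 members was past 2-fold, where 3.56% of all genes were. This was Slfn4 at a log2 ratio of 1.13 (0.90 to 1.38), which went to 0.74 when cells were thinned to 4500 UMIs to 0.92 when the libraries were merged without integration and to 2.34 at cluster resolution 2. Slfn1 was at 0.85, Slfn3 at 0.81, Slfn9 at 0.71, Slfn5 at 0.68, Slfn8 at 0.64 and Slfn2 at 0.44. None was 2-fold lower, as 2.90% of all genes were.

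Granulocytes were higher in WT for Slfn4 (1.53, 1.41 to 1.64), Slfn5 (1.11), Slfn8 (0.78), Slfn1 (0.50) and Slfn2 (0.24). Slfn9 was at 1.65 there on 28 and 12 UMIs, with an interval (0.63 to 2.76) that held that of Slfn4. In endothelial cells the ratio was 1.40 (0.83 to 2.01) for Slfn4, 1.01 (0.43 to 1.62) for Slfn9, 0.71 for Slfn8 with a lower limit of 0.15, 0.25 (0.16 to 0.35) for Slfn5, 0.62 for Slfn2 and 0.72 for Slfn3. With the top 8% of cells by doublet score left out, Slfn8 in endothelial cells was at 4.16 and 4.94 CPM, a ratio below 0 with an interval that spanned it (-0.25, -1.42 to 0.94), and Slfn4 was at 9.16 and 2.28 CPM (2.01). Slfn1 there came to 83 UMIs in WT and 1 in CD169-DTR, and to 13 and 1 once those cells were left out. Monocyte genes moved with it in this class, with 8 of 10 measured at least 2-fold higher in WT (median log2 ratio 3.28), as 2.53% of 11322 genes were.

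**Figure D2:**
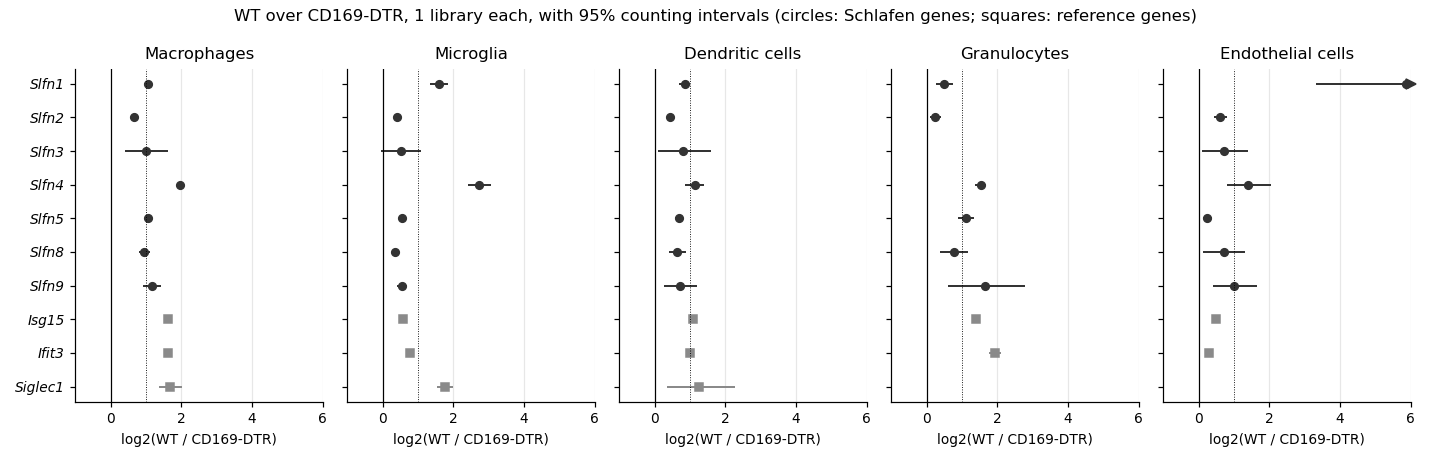
Log2 ratio of WT over CD169-DTR (x axis) for the 7 Schlafen genes (circles) and 3 reference genes (squares) in 5 classes, 1 library each, with 95% counting intervals, the dotted line at 2-fold and a > sign where an interval runs past the axis. No Schlafen point lies left of 0. Among the Schlafen genes, Slfn4 lies furthest right in macrophages, microglia and dendritic cells, and Slfn2 lies nearest to 0 in macrophages, dendritic cells and granulocytes.

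In T cells, 4 of 7 members were at least 2-fold higher in WT (6.82% of all genes), and in NK cells 4 of 6 (5.28%), while 0 members were 2-fold lower (1.38% and 2.21% of all genes). Both counts rest partly on cells led by myeloid genes. When the T and NK cells were clustered again, 2 groups were led by such genes, 1 by C1qa and C1qc (43 WT and 12 CD169-DTR cells) and 1 by Wfdc17 and H2-Aa (44 and 2 cells), and between 91.7% and 100% of their cells were among the highest doublet scores. Without them Slfn4 went from 19.6 and 1.88 CPM to 5.00 and 1.37 in T cells, and from 50.8 and 3.07 to 7.32 and 1.76 in NK cells. Slfn4 then had fewer than 20 UMIs in each class and was no longer counted. Its log2 ratios were 1.87 in T cells and 2.06 in NK cells, with intervals that spanned 0. The counts past 2-fold among members with enough UMIs were then 2 in each class (6.05% of all genes in T cells and 4.42% in NK cells). Leaving out these 2 groups was chosen after the data were seen.

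The ratios of Slfn5 and Slfn8 in NK cells changed little without these groups, while the WT level of Slfn5 fell. With all NK cells, Slfn5 stood at 182 CPM (164 to 201) for WT and 32.2 (19.9 to 49.2) for CD169-DTR. This was a log2 ratio of 2.50 on 386 and 21 UMIs. Without these groups Slfn5 stood at 133 and 26.3 CPM, a log2 ratio of 2.34 on 218 and 15 UMIs. Its ratio ran from 2.31 to 2.85 over all settings. Slfn8 in NK cells stood at 124 and 43.0 CPM, a log2 ratio of 1.53 that ran from 1.47 to 1.64. In T cells Slfn5 was at 280 and 134 CPM (1.07) and Slfn2 at 593 and 384 (0.63).

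Among the T cell groups, Slfn1 was highest in WT in the group led by Ccr7, Lef1 and Actn1, genes of naive and central memory T cells, at 417 CPM (370 to 468), and next in the Cd8a group at 345 (313 to 379), with intervals that met. The group with Foxp3, Areg and Il1rl1 held 208 (173 to 249) and the group with Il17a 150 (107 to 206). The NK group held 18.4 (12.4 to 26.3). The Foxp3 and Il17a groups are under the minimum of 50 cells in at least 1 library and are given as values only. In CD169-DTR the Cd8a group (169), the Ccr7 group (165) and the Foxp3 group (179) did not differ beyond their intervals. Slfn2, which is known for T cell quiescence, was at 604 CPM in the WT Ccr7 group, 628 in the Cd8a group and 541 in the Foxp3 group. The Foxp3 group was the exception to the direction in Slfn5, with 152 CPM (122 to 187) for WT and 241 (179 to 316) for CD169-DTR, from 51 and 32 cells.

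Within microglia, cluster 6 held the most of 5 of 7 members in both libraries, as it did of 4.71% of all genes. It was led by Gm4951, Cxcl10 and Iigp1, genes of the interferon response, and held 492 WT and 392 CD169-DTR cells. Slfn5 was at 498 CPM (478 to 518) and 443 (423 to 465) there, against 91.5 (84.4 to 99.0) and 66.8 (62.0 to 71.8) in cluster 0, which was led by the resting microglia genes Slc2a5 and P2ry12. Slfn2 was at 542 and 430 against 163 and 122, Slfn1 at 52.4 and 26.4 against 2.40 and 0.916, Slfn8 at 211 and 188 against 108 and 90.2, and Slfn9 at 85.8 and 65.8, on 416 and 257 UMIs, against 80 and 97 UMIs in cluster 0, which held 1281 and 1869 cells. The members that were not highest in cluster 6 were Slfn3 and Slfn4.

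Inside this cluster the libraries were closer than in microglia as a whole for Slfn5 (log2 ratio 0.17, 0.08 to 0.26) and Slfn8 (0.17, 0.03 to 0.30), while Slfn1 was at 0.99 (0.66 to 1.34), against 1.58 in microglia as a whole. Slfn4 came to 96 UMIs in WT and 4 in CD169-DTR. Slfn9 was also high in the cycling clusters, at 67.9 and 51.6 CPM in the Mki67 cluster, 51.2 and 51.7 in the Hells cluster, which expresses genes of DNA replication, and 55.5 and 50.6 in the Ccnb2 cluster.

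Macrophages held 3 clusters with different Schlafen profiles. In WT, Slfn4 was highest in cluster 2 (Gpnmb, Ms4a7 and Fabp5, genes of differentiated tumour macrophages) at 838 CPM (820 to 856), and Slfn4 was itself among its 10 leading genes. Cluster 5 (Chil3, F13a1 and Hp, genes of recently arrived monocytes) held 356 (343 to 370). In CD169-DTR both held the same level within error, 163 (153 to 174) and 161 (148 to 176), so the log2 ratio was 2.36 (2.27 to 2.46) in cluster 2 and 1.14 (1.01 to 1.28) in cluster 5. The median depth of cluster 2 was 5297 UMIs in WT and 14387 in CD169-DTR, and the part of this gap in the ratio was not tested within the cluster.

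The other abundant members had the opposite order. Slfn2 was at 1301 and 1033 CPM in cluster 5 against 695 and 398 in cluster 2, Slfn5 at 754 and 469 against 555 and 238, and Slfn1 at 327 and 204 against 276 and 118. Ratios of WT over CD169-DTR were larger in cluster 2 for these genes too (log2 0.80 against 0.33 for Slfn2, 1.22 against 0.69 for Slfn5, 1.23 against 0.68 for Slfn1), with intervals apart. Cluster 17 (Ear2, Adgre4 and Treml4, genes of patrolling monocytes) held 45.1 (30.7 to 64.1) and 39.3 CPM (25.2 to 58.5) of Slfn4, the same within error, on 31 and 24 UMIs. The difference of ratios between clusters was not tested.

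**Figure D3:**
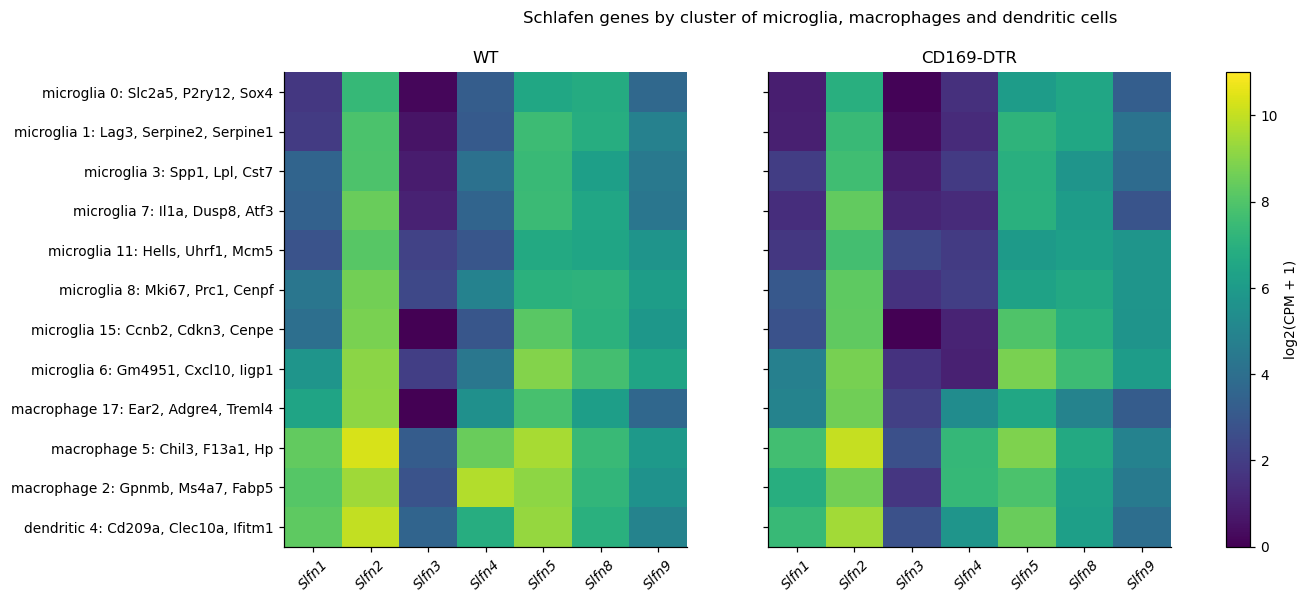
Level of each Schlafen gene as log2(CPM + 1), in colour, in the clusters of microglia, macrophages and dendritic cells with at least 50 cells in each library, WT on the left and CD169-DTR on the right, each cluster with its 3 leading genes. Microglial cluster 6 is the brightest microglial row for Slfn1, Slfn2, Slfn5, Slfn8 and Slfn9, and the brightest Slfn4 cell is macrophage cluster 2 in WT (838 CPM).

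To set cells of like interferon response side by side, cells of at least 4500 UMIs were thinned to 4500, and the UMIs of 61 listed interferon response genes, none of them a Schlafen gene, were counted in each cell. Cells of a class were put in 5 bins with the same edges in both libraries. The bins are ranges of a score and not cell types. The depth limit kept 1603 of 2267 WT macrophages and 655 of 736 CD169-DTR ones. Within every bin of both classes the median score was still higher in WT. In macrophages it was 40.0 against 33.0 UMIs in the lowest bin and 263 against 235 in the highest. Of WT macrophages 420 cells (26.2%) fell in the highest bin and 192 in the lowest, against 32 (4.89%) and 266 (40.6%) in CD169-DTR. Of WT microglia 28.3% were in the highest and 14.0% in the lowest, against 12.5% and 26.0%.

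At this depth every member had a higher level in the highest bin than in the lowest. In macrophages Slfn4 went from 44.0 to 1036 CPM in WT (log2 difference 4.56, 4.10 to 5.06) and from 18.4 to 958 in CD169-DTR (5.70, 5.05 to 6.42). Slfn5 went from 127 to 1168 and from 87.7 to 1118, Slfn1 from 40.5 to 484 and from 33.4 to 403, and Slfn9 from 5.79 to 111 and from 5.85 to 97.2. Slfn8 had 2.57 and 2.79 as log2 differences. Slfn2 had 1.59 and 1.47, with 461 and 431 CPM in the lowest bin.

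In microglia Slfn5 went from 24.7 to 393 CPM in WT and from 19.3 to 364 in CD169-DTR, Slfn9 from 5.02 to 75.9 and from 6.92 to 83.2, and Slfn1 from 1.93 to 31.4 and from 1.06 to 22.2. Slfn4 differed less here, with 8.10 and 17.6 CPM in WT (1.12, 0.42 to 1.88) and 1.95 and 4.81 in CD169-DTR (interval 0.03 to 2.60). With cells thinned to 2500 UMIs the direction of Slfn4 in CD169-DTR microglia turned (3.54 and 1.19 CPM, -1.58, -4.78 to 0.59), and Slfn3 in CD169-DTR macrophages came to 1 UMI in the lowest bin and 0 in the highest. Over 7 members, 2 classes and 2 libraries, 26 of 28 intervals of this difference lay above 0, and 25 of 28 at 2500 UMIs. Over all genes with at least 20 UMIs in these bins, the interval lay above 0 for 14.3% in WT and 9.33% in CD169-DTR macrophages. In microglia it did for 17.8% and 18.4%. The 28 member intervals had no such limit.

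When both libraries were given the same weight per bin, the WT over CD169-DTR difference in macrophages was smaller. The log2 ratio over all thinned cells and then with the same bin weights was 0.84 and 0.03 for Slfn1, 0.61 and 0.14 for Slfn2, 0.96 and -0.00 for Slfn5, 0.81 and 0.02 for Slfn8 and 1.08 and -0.06 for Slfn9. Slfn4 went from 1.50 to 0.27 and had WT higher beyond its interval in 3 of 5 bins. At 2500 UMIs the same weighting took Slfn4 from 1.73 to 0.63, with WT higher in 5 of 5 bins, Slfn9 from 1.59 to 0.20 and Slfn8 from 0.88 to -0.20. Of 35 member and bin pairs in macrophages 29 had intervals that spanned 0, 5 lay above 0 and 1 below. At 2500 UMIs 9 of 35 lay above and 1 below. Over all genes and bins with at least 20 UMIs of the gene, 5.00% lay above and 4.96% below. The 35 member pairs had no such limit. Slfn3, on few UMIs, went from 0.46 to -0.39, and at 2500 UMIs from 1.26 to 0.74.

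In microglia the same weighting took Slfn5 from 0.61 to 0.10, Slfn2 from 0.47 to 0.14, Slfn8 from 0.27 to -0.01 and Slfn9 from 0.60 to 0.01. Slfn1 kept 0.61 of 1.45 and Slfn4 2.05 of 2.30, the latter with WT higher in 5 of 5 bins. Levels in bins were not corrected for free RNA, which would give 5.18 CPM of Slfn4 in WT and 1.88 in CD169-DTR. In bins 1 to 4 Slfn4 lay between 7.44 and 8.56 CPM in WT and between 1.36 and 2.03 in CD169-DTR. The part of free RNA in this difference was not tested within bins. The interferon response moved with the Schlafen difference in these cells, and its part in the difference was not tested. Of 35 pairs in microglia 23 spanned 0, 11 lay above and 1 below. Over all genes and bins with at least 20 UMIs of the gene, 4.43% lay above and 6.81% below. The 35 member pairs had no such limit. At 2500 UMIs 9 lay above and 0 below, and Slfn4 had WT higher beyond its interval in 3 of 5 bins.

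**Figure D4:**
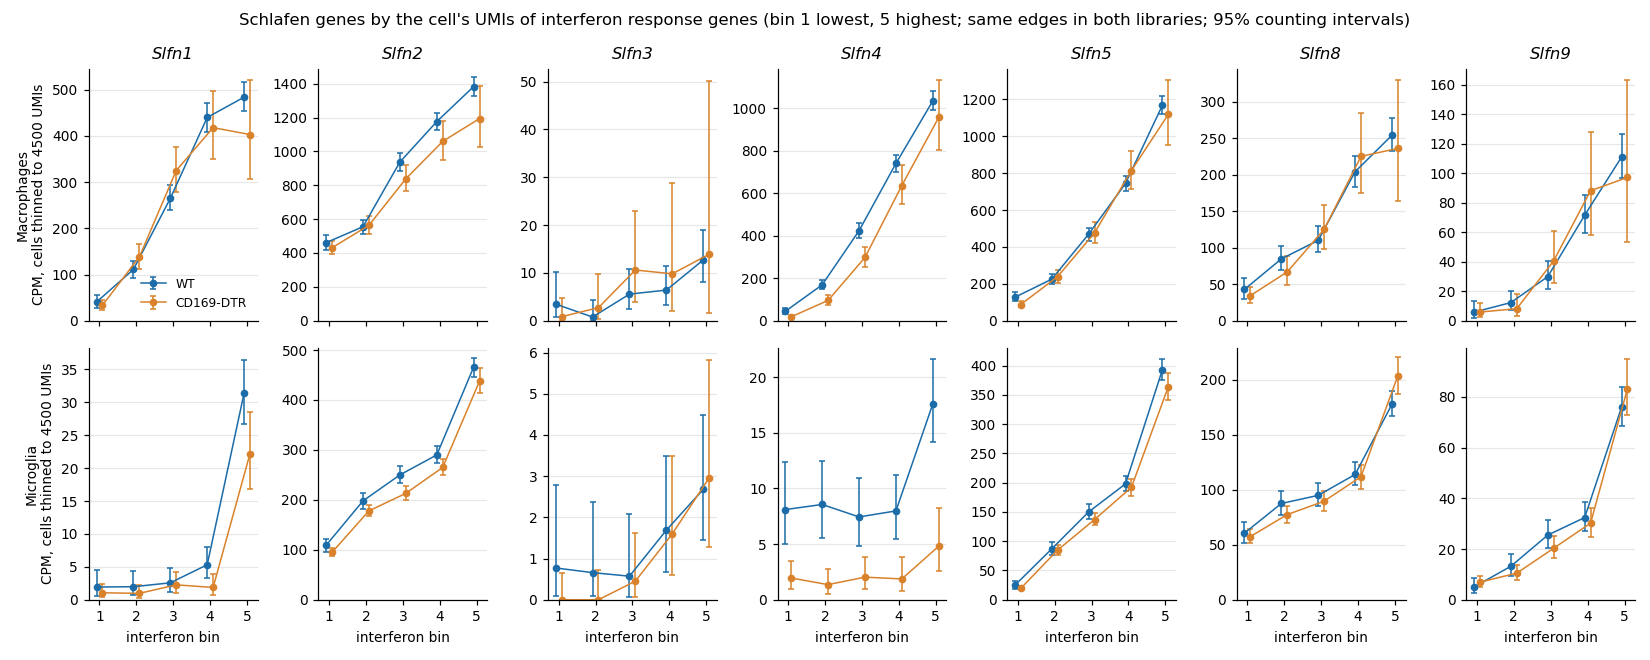
Level of each Schlafen gene (CPM, linear axis) in cells thinned to 4500 UMIs, by bin of interferon response UMIs (1 lowest, 5 highest, same edges in both libraries), macrophages above and microglia below, WT in blue and CD169-DTR in orange, with 95% counting intervals. The lines of the 2 libraries lie close together in most panels, and they stay apart for Slfn4 in microglia (8.10 and 1.95 in the lowest bin, 17.6 and 4.81 in the highest). Levels were not corrected for free RNA, which would give 5.18 and 1.88 CPM of Slfn4.

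Macrophages of at least 4500 UMIs were split by whether they held a Siglec1 UMI. With and without one were 385 and 1218 WT cells, and 87 and 568 CD169-DTR cells. The split used full counts, since after thinning to 4500 UMIs only 227 WT and 31 CD169-DTR macrophages held a Siglec1 UMI. Only the levels were taken after thinning, so the split itself was not evened for depth. A cell without a Siglec1 UMI may still express the gene. Slfn4 was at 802 CPM with and 495 without in WT (log2 difference 0.70, 0.60 to 0.79) and at 330 and 182 in CD169-DTR (0.86, 0.56 to 1.14). Slfn1 was at 369 and 290 (0.34, 0.21 to 0.48) and at 253 and 161 (0.65, 0.32 to 0.97). Slfn5 had a small difference in WT (0.10, with a lower limit just above 0) and 0.31 (0.05 to 0.56) in CD169-DTR. These 3 of 7 members had intervals above 0 in both libraries, as 1.79% of all genes had. In WT alone 9.09% of all genes had one and in CD169-DTR alone 4.32%. Slfn9 had 0.59 (0.27 to 0.90) in WT, while its interval in CD169-DTR spanned 0 (0.78, -0.12 to 1.59). Slfn2 was lower in WT cells with a Siglec1 UMI (911 and 1008 CPM, -0.15, -0.23 to -0.06) and showed no difference beyond its interval in CD169-DTR. Isg15 (0.34 and 0.44) and Ifit3 (0.43 and 0.67) were higher in cells with a Siglec1 UMI as well.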

How the data were processed

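Live CD45.2+ cells of GL261 gliomas were profiled in 2 droplet libraries with 3′ reads, 1 WT and 1 CD169-DTR. The authors deposited raw UMI counts per gene and barcode for all barcodes, made with Cell Ranger 3.1.0 on mm10 per the labels, and 0 columns belong to no sample. The libraries hold 101808996 and 84065489 UMIs. Barcodes under 1000 UMIs or over 17% mitochondrial UMIs were left out. Seurat 5.3.0 in R 4.3.3 integrated the libraries on 2000 variable features without Schlafen genes and clustered them (50 dimensions for integration, 30 for clustering, resolution 1). T and NK cells were clustered again (20 dimensions, resolution 0.5). A cluster was named when at least 3 markers of a class were detected. The limits used in naming were chosen after seeing the data. Doublets were not removed, and Scrublet in scanpy 1.11.5 gave the scores for an alternative without the highest 8%.

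UMIs were summed per class and library as CPM, with exact Poisson intervals, and ratios got exact conditional intervals at 95% (scipy 1.17.1). Ratios were read for genes with at least 20 UMIs in a class over both libraries, and at least 2-fold was the call. Marking a class and likeness needed 100 UMIs, classes needed 50 cells, and a level of 0 was set at 3 counts for drawing. Shares of cells and bins used cells thinned to 4500 UMIs unless full counts are named. Free RNA was taken from barcodes of 10 to 100 UMIs, with its amount from microglial markers in T, NK and B cells. With 1 library per group no test was made, and the precision given is that of counting. Scripts were tested on simulated data.

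The members and gene lists were chosen with earlier results of these data known. Named were the 7 members, the 3 genes most like each, the receptor and signalling genes, Isg15, Ifit3, Cxcl10 and Siglec1, and up to 5 leading genes of a cluster. Genes of lymphocyte groups below that rank, and Slfn5os, were named after their values were seen. Coding sequences came from GENCODE for GRCm38 and promoters from RefSeq GRCm38.p6. Slfn10-ps was not analysed here. The value of 1 signalling gene is not reported here. The alternatives tried changed the filters, doublets, integration, resolution, features, scaling, weights, free RNA, thinning and threshold.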

Additional observations from a re-analysis of the deposited data

How the results depend on the processing

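No paired analysis was possible because each group has 1 library. No log2 ratio of WT over CD169-DTR within a class went below 0 under the alternatives run for it in macrophages, microglia, dendritic cells, T cells or NK cells, among members with enough UMIs. Weighting by interferon bins, a separate comparison, gave -0.06 for Slfn9 and -0.39 for Slfn3 in macrophages and -0.01 for Slfn8 in microglia. The counts of members at least 2-fold higher in WT that moved by more than 1.5 times were as follows. In macrophages, 4 became 2 with each cell given the same weight, 2 with cells thinned to 4500 UMIs, 2 with each cluster given the same weight, and 7 at a log2 threshold of 0.5. In microglia, 2 became 5 at that threshold. In dendritic cells, 1 became 0 with the libraries merged without integration, 2 at resolution 0.5, 3 at resolution 2, 0 with thinned cells and 6 at a log2 threshold of 0.5. In T cells, 4 became 7 at that threshold. In NK cells, 4 became 2 with the 8% highest doublet scores removed. With the T and NK groups led by myeloid genes left out, an alternative added after the data were seen, the counts were 2 and 2. In T and NK cells Slfn4 had too few UMIs to be counted under this setting and without the highest doublet scores. The number of members marking a class went from 1 to 0 with thinned cells, since too few granulocytes were left. Of the other alternatives, those in macrophages gave 4 to 6, those in T cells 3 to 6 and those in NK cells 4 to 6. The number of members higher in macrophages with a Siglec1 UMI in both libraries was 3, and 4 without thinning. Slfn4 ran from 1.50 to 2.02 in macrophages and from 2.16 to 5.16 in microglia, where few UMIs remained once free RNA was subtracted. Median ratio scaling shifted log2 ratios by 0.10 or less. Leaving out border macrophages gave no other value, since no cluster was named so. The causes were not tested. Members on few UMIs, Slfn3 above all, are limited by depth.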
